A study of Mus musculus with 7 samples.

Results

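Translation initiation factors are the proteins that bring the small ribosomal subunit, the initiator tRNA and an mRNA together at a start codon. Their genes were examined here in hearts of fasted KLF15-null and wild-type mice. They were taken as all probe sets that the array's platform annotation assigns to exactly 1 gene symbol beginning with Eif1 to Eif6, leaving out Eif4ebp1 and the Y-linked Eif2s3y. That gave 40 genes on 99 probe sets, of 12393 genes with a probe set of exactly 1 symbol. A further 5 probe sets that name an initiation factor together with another gene were not used. Of the 40 genes, 13 had 1 probe set and 27 had several, up to 6 for Eif2s2. Each gene was reported on the probe set with the highest WT mean.

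Initiation begins when eIF2, carrying GTP and the initiator tRNA, joins a small ribosomal subunit held by eIF1, eIF1A, eIF3 and eIF5. The eIF4 proteins bind the mRNA cap and unwind the leader, the complex scans to the start codon, eIF5 triggers GTP hydrolysis on eIF2, and eIF5B joins the large subunit. The steps under most control are the recycling of eIF2 by its exchange factor eIF2B, which stress kinases block by phosphorylating eIF2, and the binding of eIF4E to the cap, which 4E-binding proteins block when mTOR activity is low, as in fasting muscle. KLF15 is a zinc-finger transcription factor best known in heart and skeletal muscle for its part in amino acid and lipid metabolism.

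The arrays came from 3 hearts of KLF15-null mice and 4 hearts of WT mice, all of strain C57/BL6, labelled male, aged 3 to 4 months and fasted for 18 h. The labels give neither the deleted part of Klf15 nor whether it is lost in all cells, and nothing states that the numbered samples of a group came from separate animals, so p-values measure the spread between these samples. No fed hearts were analysed here, so every difference is one between the genotype groups in the fasted state. The sample labels used here do not say whether both groups were processed together. A processing difference between the groups therefore cannot be told apart from genotype and was not tested. Arrays correlated at 0.986 to 0.993 within KLF15-null, 0.995 to 0.997 within WT and 0.942 to 0.964 between the groups.

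Klf15, on its only probe set, had log2 signals of 6.52, 6.23 and 6.23 in KLF15-null hearts, against 8.68, 8.98, 8.73 and 9.08 in WT hearts. All KLF15-null values lay below all WT values. A probe set outside the deleted part would check nothing, and the sources used here do not say whether this one lies inside it. The labels' male sex was not borne out by sex-linked genes: Xist, the RNA of the inactive X chromosome, gave 8.57 to 9.62 in KLF15-null and 9.82 to 9.94 in WT hearts on its brightest probe set, and Eif2s3y gave 3.56 to 3.62 in KLF15-null and 3.49 to 3.68 in WT hearts, near the bottom of the array. Xist was thus bright and Eif2s3y dim on all 7 arrays, and the Xist ranges of the genotypes did not overlap on that probe set. Of the 8 cardiomyocyte markers (Myh6, Tnnt2 and others) 1 was higher in KLF15-null hearts, none was lower, and their summed linear signal was 103794 to 112227 in KLF15-null and 98977 to 113485 in WT hearts. Summed signals of 5 neutrophil markers were 623 to 756 in KLF15-null and 257 to 401 in WT hearts, with S100a8 and S100a9 higher, Cxcr2 and Ngp not past the threshold and Camp below the filter level. Those of 12 macrophage and monocyte markers were 4726 to 6620 in KLF15-null and 2960 to 4975 in WT hearts, with 3 of the 10 tested higher and 2 lower. Summed signals of 7 fibroblast markers were 4613 to 5340 in KLF15-null and 5513 to 9980 in WT hearts, with 1 higher (Pdgfra), 2 lower (Dcn and Lum) and 4 not past the threshold. Of 7 endothelial markers none was higher and 1 lower, and T cell, B cell, erythroid and adipocyte lists had only 1 or 2 genes above the filter level. Of 4 smooth muscle markers none was called higher and 1 lower, while their summed signal was 3197 to 3538 in KLF15-null and 2111 to 3218 in WT hearts. The part of these cell markers in the differences given here was not tested, and in bulk tissue fewer cells of a type cannot be told apart from less RNA per cell.

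Among the initiation factor genes 15 rose and 7 fell in KLF15-null hearts, and 16 did not pass the threshold. Differences are given as KLF15-null minus WT on the log2 scale, and a gene was called at an adjusted p under 0.05 in a limma model over all 13576 probe sets bright enough to test. Of the 40 genes 38 were tested, and Eif2ak2 and Eif2ak4 lay below the filter level. The share called was 57.9%, against 46.5% of all 8400 genes tested on the same kind of probe set. Higher genes made up 39.5% of the initiation factors, where 25.3% of all genes were higher, and lower genes made up 18.4%, where 21.2% of all genes were lower. The median difference was 0.13 over the initiation factors and 0.01 over all genes tested.

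These factors are brightly measured, and bright genes moved up more often. Their median WT signal was 9.53, against 7.64 over all genes tested. Among the 1249 genes of the array with a WT mean of 9.5 or more, 35.4% were higher and 22.9% lower, with a median difference of 0.10. Of the 19 initiation factors above that level 8 were higher and 3 lower, and their median difference was also 0.10. The remaining 19 held 7 higher and 4 lower genes, beside 25.3% higher and 21.2% lower over all genes tested at any level. The part of brightness in these shares was not tested. The balance between the directions depended on array scaling. After quantile normalization 13 initiation factors were higher and 14 lower, with a median of -0.09, and 25.6% of all genes were higher and 23.7% lower. After cyclic loess normalization 15 were higher and 14 lower, with a median of -0.11, and 24.4% of all genes were higher and 25.0% lower.

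Complete separation of the 3 KLF15-null values from the 4 WT values was seen for 15 initiation factors on the higher side and 7 on the lower side, 39.5% and 18.4% of those tested, against 26.2% and 23.1% of all genes. KLF15-null array 2 was the lowest of its group for 28 of the 38 genes, 73.7%, against 47.9% of all genes tested. The median SD between KLF15-null arrays was 0.21 for these genes, and that between WT arrays was 0.13. Over all genes tested the median SD was likewise larger between KLF15-null arrays, at 0.17, than between WT arrays, at 0.11.

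**Figure D1:**
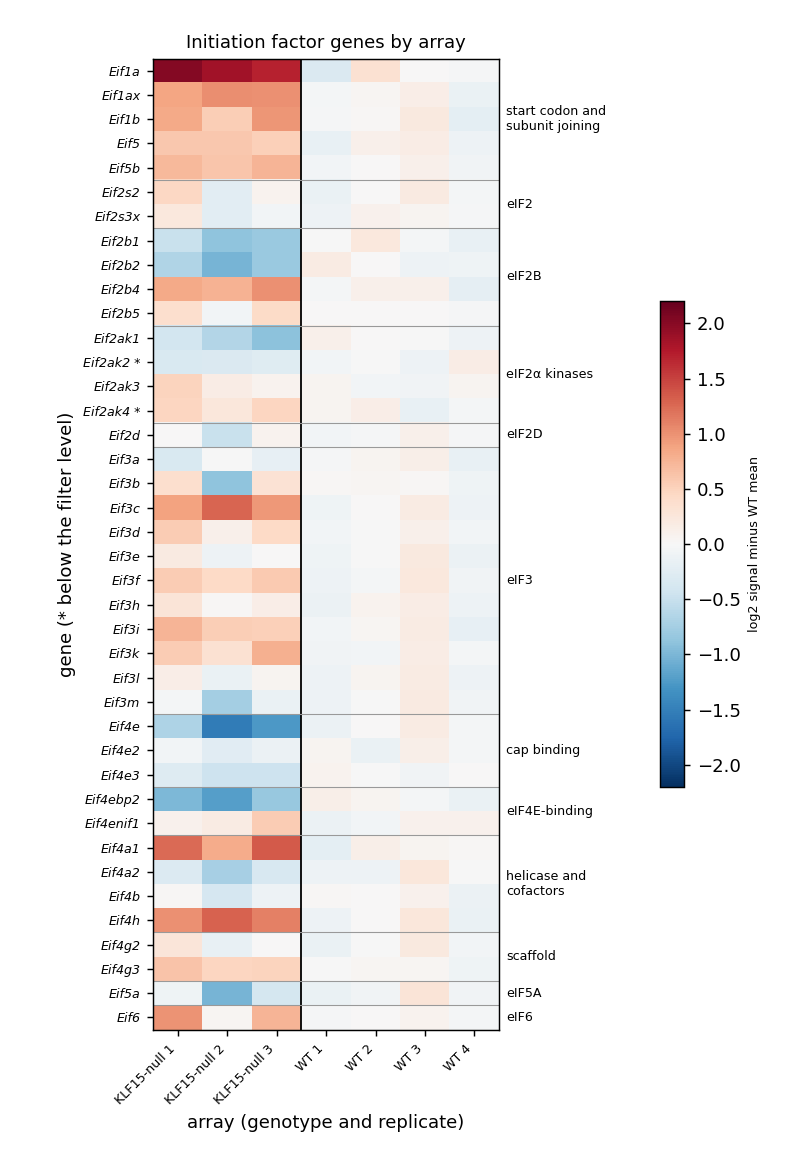
Log2 signal minus the gene's WT mean (colour) for the 40 initiation factor genes (rows, by factor complex) on the 3 KLF15-null arrays and the 4 WT arrays (columns), each gene on its probe set brightest in WT. The 5 genes of start codon selection and subunit joining are red on every KLF15-null array, Eif4e and Eif4ebp2 are blue, and several eIF3 genes are paler on KLF15-null array 2.

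All 5 measured genes of start codon selection and subunit joining were higher in KLF15-null hearts, with a median difference of 0.78. The share higher over all genes tested was 25.3%. All 5 genes were also higher after quantile, cyclic loess and median scaling. With probe sets of a unique match preferred 4 were higher, and with each gene's probe sets averaged 4 were higher and 1 lower. Eif1a, which codes for eIF1A, a scanning factor that sits in the decoding site of the small subunit, had log2 signals of 8.84, 8.67 and 8.53 in KLF15-null hearts, against 6.51, 7.17, 6.84 and 6.81 in WT hearts. The KLF15-null values lay above all WT values, and the difference of 1.85 (SE 0.15, adjusted p = 1.33e-05) was the largest of any initiation factor on the probe set reported. Its second probe set, of a kind shared by several transcripts, gave 2.14. Eif1a has no probe set of a unique match. Eif1ax, the X-linked gene for the same factor, had 9.96, 10.12 and 10.10 in KLF15-null hearts, against 9.05, 9.12, 9.24 and 8.94 in WT hearts. Its groups did not overlap either, at a difference of 0.97 (SE 0.11, adjusted p = 7.98e-05). Its dimmer probe set, of a unique match, differed by 0.22 (adjusted p = 0.0957), not past the threshold.

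Eif1b, a close paralog of the start codon gatekeeper eIF1, had 9.12, 8.83 and 9.27 in KLF15-null hearts, against 8.26, 8.32, 8.50 and 8.07 in WT hearts. The groups were separate on this gene's only probe set, with a difference of 0.78 (SE 0.14, adjusted p = 0.00119). Eif5, the GTPase-activating protein of eIF2, had 10.33, 10.33 and 10.26 in KLF15-null hearts, against 9.58, 9.84, 9.90 and 9.62 in WT hearts. Every KLF15-null value lay above every WT value, with a difference of 0.57 (SE 0.12, adjusted p = 0.00262). The other 3 probe sets of Eif5 differed by 1.45, 0.91 and 0.17, the last not past the threshold. Eif5b, the GTPase that joins the large subunit, had 9.85, 9.74 and 9.87 in KLF15-null hearts, against 9.08, 9.14, 9.24 and 9.06 in WT hearts on its brightest probe set. That is a rise of 0.69 (SE 0.10, adjusted p = 0.000366) with separate groups, yet its 2 dimmer probe sets went the other way. The second gave 6.28, 6.60 and 5.80 in KLF15-null hearts, against 7.92, 7.78, 8.16 and 7.92 in WT hearts, a difference of -1.72 (adjusted p = 4.05e-05), and the third differed by -0.38 (adjusted p = 0.0487). The direction of Eif5b therefore depends on the probe set read.

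Neither measured subunit of eIF2 itself passed the threshold on its brightest probe set. Eif2s2, the beta subunit, had 10.85, 10.17 and 10.48 in KLF15-null hearts, against 10.25, 10.41, 10.59 and 10.35 in WT hearts. The groups overlapped, with a difference of 0.10 (SE 0.16, adjusted p = 0.621). Its other 4 tested probe sets differed by -1.13, 1.30, 0.59 and -0.15, so that 2 were called higher, 1 lower and 1 not at all. Eif2s3x, the X-linked gamma subunit that binds GTP and the initiator tRNA, had 10.49, 10.03 and 10.21 in KLF15-null hearts, against 10.15, 10.35, 10.32 and 10.23 in WT hearts. These groups overlapped as well, at -0.02 (SE 0.13, adjusted p = 0.910), while another probe set was higher by 0.45 and the dimmest fell by 0.35.

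The exchange factor eIF2B moved both ways among its subunits. Of the 4 measured genes 2 were lower and 1 higher, where 21.2% of all genes tested were lower and 25.3% higher. Eif2b1, the alpha subunit of the regulatory part, had 8.004, 7.611 and 7.668 in KLF15-null hearts, against 8.482, 8.717, 8.441 and 8.321 in WT hearts. All KLF15-null values were below all WT values on its only probe set, a difference of -0.73 (SE 0.13, adjusted p = 0.00140). Eif2b2, the beta subunit, had 7.74, 7.38 and 7.58 in KLF15-null hearts, against 8.59, 8.42, 8.29 and 8.31 in WT hearts, again with separate groups and a difference of -0.84 (SE 0.12, adjusted p = 0.000310). Of 2 further probe sets of the cross-hybridizing kind, the second was higher by 0.84 (adjusted p = 0.00198) and the third fell by 0.49 (adjusted p = 0.00450). Eif2b4, the delta subunit, stood opposite to its regulatory partners. It had 9.49, 9.41 and 9.65 in KLF15-null hearts, against 8.61, 8.76, 8.76 and 8.45 in WT hearts, a difference of 0.87 (SE 0.12, adjusted p = 0.000237) with no overlap. Eif2b5, the catalytic epsilon subunit, had 8.78, 8.35 and 8.83 in KLF15-null hearts, against 8.41, 8.42, 8.42 and 8.38 in WT hearts. KLF15-null array 2 fell below the WT values and the other KLF15-null arrays lay above them, so that 0.24 did not pass (adjusted p = 0.145), whereas without KLF15-null array 2 the difference was 0.39 (adjusted p = 0.00401).

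Among the 4 kinases that phosphorylate eIF2, only Eif2ak1 was called on the probe set reported. Eif2ak1 codes for HRI, the heme-regulated kinase, and had 7.65, 7.41 and 7.17 in KLF15-null hearts, against 8.17, 8.07, 8.05 and 7.95 in WT hearts. The groups were separate, with a difference of -0.65 (SE 0.12, adjusted p = 0.00176). Its second tested probe set fell by 0.82 (adjusted p = 0.000153), so both tested probe sets of Eif2ak1 were lower. Eif2ak3, the endoplasmic reticulum kinase PERK, had 6.57, 6.25 and 6.17 in KLF15-null hearts, against 6.15, 6.04, 6.02 and 6.15 in WT hearts. Its KLF15-null values lay just above all WT values, at 0.24 (SE 0.11, adjusted p = 0.0834), which missed the threshold on the deposited scale and passed it after quantile normalization (0.32, adjusted p = 0.0214), cyclic loess (0.29, adjusted p = 0.0427) and median centring (0.33, adjusted p = 0.0213). The kinases Eif2ak2 (PKR, activated by double-stranded RNA) and Eif2ak4 (GCN2, activated by uncharged tRNA) were dim, at 4.44 to 4.52 in KLF15-null and 4.67 to 4.93 in WT hearts for Eif2ak2, and 4.91 to 5.13 in KLF15-null and 4.50 to 4.80 in WT hearts for Eif2ak4. Both lay under the filter level of 5.74 and were not tested. Eif2d, which can deliver tRNA to the ribosome without eIF2, gave -0.14 on its brightest probe set (adjusted p = 0.458) and 1.52 on the next (adjusted p = 3.18e-05), where the KLF15-null signals were 8.93, 9.47 and 9.45 and the WT signals 7.72, 7.67, 7.92 and 7.76.

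Promoter windows are shown for 2 genes that rose and 2 that fell, chosen after their values were seen because these calls held under all alternatives tried. Eif1b and Eif2b1 have 1 probe set each, so their differences could not change with the choice of probe set. They run from 250 bases before to 50 bases after the gene start in RefSeq (GRCm38.p6) and are written 5′ to 3′ on the strand of the gene. Capitals mark CACCC, a core letter string of Krüppel-like factor sites, and GGGCGG, the GC box, each searched on both strands, so that the GC box also appears as CCGCCC. Eif1b lies at chr9:120492356-120492655 on the plus strand, Eif5 at chr12:111537851-111538150 on the plus strand, Eif2ak1 at chr5:143817542-143817841 on the plus strand and Eif2b1 at chr5:124579082-124579381 on the minus strand.
Eif1b: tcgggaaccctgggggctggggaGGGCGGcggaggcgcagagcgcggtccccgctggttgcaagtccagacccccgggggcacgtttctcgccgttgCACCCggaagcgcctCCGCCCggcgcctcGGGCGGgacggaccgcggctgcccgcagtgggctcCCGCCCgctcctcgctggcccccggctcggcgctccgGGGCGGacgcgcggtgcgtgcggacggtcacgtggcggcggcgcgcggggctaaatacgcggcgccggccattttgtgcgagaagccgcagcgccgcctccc
Eif5: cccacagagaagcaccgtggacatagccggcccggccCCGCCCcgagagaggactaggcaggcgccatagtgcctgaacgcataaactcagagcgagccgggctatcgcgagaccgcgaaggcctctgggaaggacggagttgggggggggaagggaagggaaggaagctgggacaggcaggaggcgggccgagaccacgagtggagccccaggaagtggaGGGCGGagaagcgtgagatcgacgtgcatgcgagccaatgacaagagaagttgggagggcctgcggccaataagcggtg
Eif2ak1: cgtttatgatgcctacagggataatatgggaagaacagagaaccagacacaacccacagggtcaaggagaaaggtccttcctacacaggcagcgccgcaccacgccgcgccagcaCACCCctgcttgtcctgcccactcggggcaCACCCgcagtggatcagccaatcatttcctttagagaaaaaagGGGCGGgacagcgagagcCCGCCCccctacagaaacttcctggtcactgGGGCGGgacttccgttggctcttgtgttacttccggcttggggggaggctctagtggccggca
Eif2b1: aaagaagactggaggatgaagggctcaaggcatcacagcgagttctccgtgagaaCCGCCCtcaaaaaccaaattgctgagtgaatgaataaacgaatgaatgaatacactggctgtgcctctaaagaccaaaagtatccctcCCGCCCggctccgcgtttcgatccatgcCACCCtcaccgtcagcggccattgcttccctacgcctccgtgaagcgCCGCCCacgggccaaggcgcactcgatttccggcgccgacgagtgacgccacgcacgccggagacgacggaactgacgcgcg
CACCC was found 1 time in the Eif1b window, 2 times in that of Eif2ak1 and 1 time in that of Eif2b1, with no match in that of Eif5. GGGCGG was found 5, 2, 3 and 3 times in the windows of Eif1b, Eif5, Eif2ak1 and Eif2b1. RefSeq windows were matched for 33 of the 40 genes, 46 windows in all. CACCC was present in 65.2% of these windows, and in 57.5% of all 32851 windows in the table. Among called genes it was present in 8 of 13 windows of those that rose and 4 of 7 windows of those that fell. GGGCGG was present in 67.4% of the initiation factor windows, and in 35.7% of all windows, with 8 of 13 among genes that rose and 5 of 7 among genes that fell. For both strings, genes with several windows, some of them overlapping, counted more than 1 time. All windows covered 27025 genes, whether tested here or not. A letter match is no evidence of binding.

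The eIF3 complex is the large scaffold that holds the small subunit and its factors together. For comparison, 25.3% of the array's tested genes rose and 21.2% fell. At a WT mean of 9.5 or more, where most eIF3 genes lie, 35.4% rose and 22.9% fell, with a median of 0.10. Of the 11 measured eIF3 genes 5 rose and none fell on the deposited scale, with a median difference of 0.15. This direction depended on scaling: after quantile normalization 2 were higher and 3 lower, with a median of -0.08, and after cyclic loess 4 were higher and 3 lower, with a median of -0.11. Eif3c, a core subunit, had 11.06, 11.45 and 11.13 in KLF15-null hearts, against 10.09, 10.19, 10.35 and 10.07 in WT hearts on a cross-hybridizing probe set. The groups were separate there, with a difference of 1.04 (SE 0.13, adjusted p = 0.000139), and a further cross-hybridizing one gave 0.93. Its 2 gene-specific probe sets differed by 0.02 and -0.22, neither past the threshold. Eif3i, of the peripheral part, had 11.67, 11.46 and 11.45 in KLF15-null hearts, against 10.86, 10.97, 11.10 and 10.73 in WT hearts. Both of its probe sets were higher, by 0.61 (SE 0.12, adjusted p = 0.00221) and 1.69 (adjusted p = 2.41e-05), with no overlap of the groups on either, although the first difference shrank to 0.20 (adjusted p = 0.0777) after quantile normalization.

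Eif3f and Eif3k, each with 1 probe set, rose by 0.53 (SE 0.12, adjusted p = 0.00430) and 0.56 (SE 0.13, adjusted p = 0.00593). Eif3f, which carries an MPN domain, had 11.28, 11.16 and 11.29 in KLF15-null hearts, against 10.60, 10.67, 10.95 and 10.63 in WT hearts, and Eif3k had 10.46, 10.23 and 10.67 in KLF15-null hearts, against 9.82, 9.84, 10.07 and 9.86 in WT hearts. Neither gene's groups overlapped. The rise of Eif3f was 0.12 after quantile normalization and did not pass there (adjusted p = 0.180). Eif3d, a subunit with a cap-binding role on some mRNAs, was higher by 0.38 (SE 0.13, adjusted p = 0.0339) with overlapping groups, KLF15-null array 2 at 9.69 lying level with WT array 3. That call did not pass when any of WT arrays 1, 2 and 4 or KLF15-null arrays 1 and 3 was left out (adjusted p between 0.0789 and 0.107). It was also lost after quantile normalization (0.15, adjusted p = 0.185) and cyclic loess (0.17, adjusted p = 0.121).

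The other 6 eIF3 genes did not pass on the probe set reported. Eif3a, the largest subunit, gave -0.18 there (adjusted p = 0.261), but 2 dimmer probe sets were called in opposite directions. The brighter of these had 9.99, 10.02 and 10.02 in KLF15-null hearts, against 9.53, 9.51, 9.67 and 9.52 in WT hearts, a rise of 0.45. The dimmer had 6.23, 6.01 and 6.42 in KLF15-null hearts, against 8.32, 8.23, 8.13 and 8.10 in WT hearts, a difference of -1.98 (SE 0.11, adjusted p = 2.06e-06). On both the groups were separate, so the disagreement is larger than the spread between replicates. Eif3b, the subunit that carries an RNA recognition motif, had 9.87, 8.61 and 9.82 in KLF15-null hearts, against 9.53, 9.53, 9.53 and 9.41 in WT hearts. Here KLF15-null array 2 lay below all WT values and the other KLF15-null arrays above them. With all arrays the difference was -0.07 (SE 0.27, adjusted p = 0.858), and without KLF15-null array 2 it was 0.35 (adjusted p = 0.0125). Eif3e differed by 0.03 on its brightest probe set (adjusted p = 0.862) and by 1.20 and 1.45 on 2 cross-hybridizing ones. Eif3h, Eif3l and Eif3m gave 0.15, 0.02 and -0.31, with adjusted p of 0.329, 0.910 and 0.162.

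**Figure D2:**
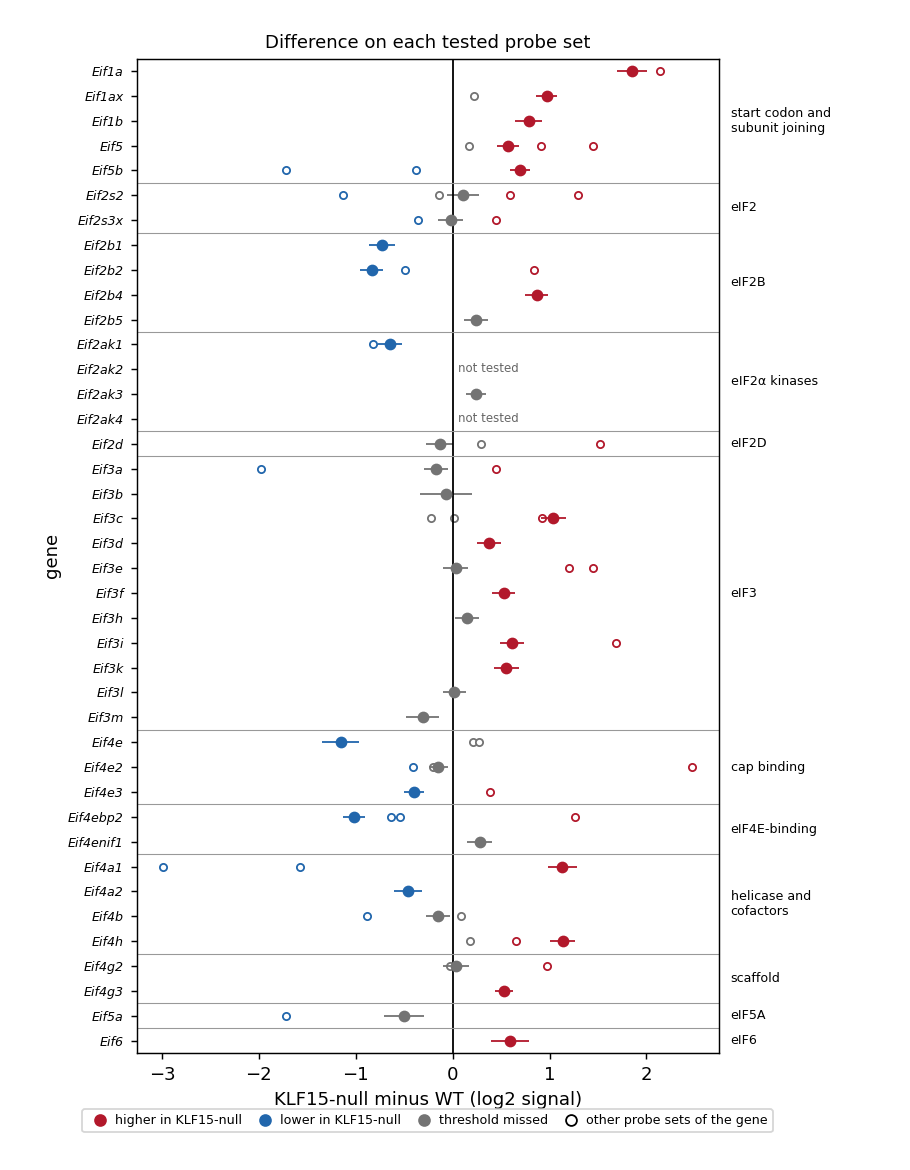
KLF15-null minus WT difference in log2 signal (x axis) for every tested probe set of each initiation factor gene (rows, by factor complex). Filled points with SE bars are the probe sets brightest in WT and open points are the gene's other tested probe sets, in red where higher, blue where lower and grey where the threshold was missed, and Eif4a1 spans 1.13 to -2.99.

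Calls among the cap-binding proteins were all lower on the probe set reported. Of 3 measured genes 2 fell in KLF15-null hearts and none rose, beside 21.2% lower and 25.3% higher over all genes tested. The median difference of the 3 genes was -0.40, and the same 2 were lower after quantile, cyclic loess and median scaling. With each gene's probe sets averaged both calls were lost (Eif4e -0.22, adjusted p = 0.0935, and Eif4e3 -0.01, adjusted p = 0.962), 1 gene was higher and none lower. Eif4e, the cap-binding subunit of eIF4F, had 9.31, 8.45 and 8.73 in KLF15-null hearts, against 9.85, 9.98, 10.16 and 9.94 in WT hearts. The KLF15-null values lay below all WT values and spread more widely (SD 0.44, n = 3, against SD 0.13, n = 4 in WT). The difference was -1.16 (SE 0.19, adjusted p = 0.000690), a 2.23-fold lower signal. Dimmer probe sets of Eif4e gave 0.21 (adjusted p = 0.228) and 0.28 (adjusted p = 0.0575), so the fall rests on the brightest. Eif4e3, a cap-binding paralog, had 9.67, 9.50 and 9.50 in KLF15-null hearts, against 10.03, 9.96, 9.88 and 9.96 in WT hearts. These groups were separate, with a difference of -0.40 (SE 0.10, adjusted p = 0.00890), but its second probe set rose by 0.39 (adjusted p = 0.0446). Eif4e2 (4EHP, a cap-binding repressor) gave -0.15 on its probe set brightest in WT (adjusted p = 0.246). It fell by 0.41 on the next and rose by 2.47 on the one dimmest in WT. That last probe set had 8.24, 8.54 and 8.32 in KLF15-null hearts, against 5.70, 5.91, 6.14 and 5.81 in WT hearts. At a mean of 8.36 it was the gene's brightest in KLF15-null hearts.

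Eif4ebp2, a repressor that competes with the eIF4G scaffolds for eIF4E, was lower as well. It had 6.45, 6.22 and 6.60 in KLF15-null hearts, against 7.57, 7.50, 7.39 and 7.29 in WT hearts, a difference of -1.01 (SE 0.11, adjusted p = 7.17e-05) with no overlap. On 2 more probe sets it fell by 0.54 and 0.64. On the tested one dimmest in WT it rose by 1.26 (adjusted p = 8.55e-06). The KLF15-null signals there were 7.13, 7.36 and 7.03, and the WT signals 5.91, 5.87, 5.87 and 6.01. At a mean of 7.18 that probe set was the gene's brightest in KLF15-null hearts. Eif4enif1 (4E-T, which carries eIF4E into the nucleus and to decay bodies) gave 0.28 (SE 0.13, adjusted p = 0.0933), not past the threshold, with KLF15-null values of 7.81, 7.89 and 8.27 just above WT values of 7.59, 7.65, 7.80 and 7.80.

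The helicase module of eIF4F was mixed, with 2 of 4 genes higher and 1 lower, beside 25.3% and 21.2% over all genes tested. Eif4h, a cofactor of the helicase, had 11.65, 11.93 and 11.75 in KLF15-null hearts, against 10.54, 10.64, 10.88 and 10.50 in WT hearts on a cross-hybridizing probe set. That is a rise of 1.14 (SE 0.13, adjusted p = 7.51e-05) with separate groups. Its other probe sets gave 0.66 (adjusted p = 0.000630) and 0.18 (adjusted p = 0.404). Eif4a2, a helicase paralog abundant in muscle and brain, had 11.36, 10.92 and 11.31 in KLF15-null hearts, against 11.54, 11.54, 11.90 and 11.65 in WT hearts on its only probe set. The KLF15-null values lay below all WT values, at -0.46 (SE 0.14, adjusted p = 0.0235), although the call was lost after median centring (adjusted p = 0.0613), without WT array 4 (adjusted p = 0.0527) and without KLF15-null array 2 (adjusted p = 0.0640). Eif4b, another cofactor, gave -0.16 on its brightest probe set (adjusted p = 0.321), fell by 0.89 on the second (adjusted p = 0.000136) and gave 0.09 on the third (adjusted p = 0.551).

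Eif4a1, the main DEAD-box helicase of initiation, showed the widest disagreement between probe sets of the 22 genes with at least 2 tested. Its brightest probe set had 11.19, 10.77 and 11.30 in KLF15-null hearts, against 9.74, 10.08, 10.02 and 9.98 in WT hearts, a rise of 1.13 (SE 0.15, adjusted p = 0.000200). Its second probe set, of a unique match, had 9.04, 7.12 and 8.18 in KLF15-null hearts, against 9.64, 9.75, 9.65 and 9.73 in WT hearts. The difference there was -1.58 (SE 0.35, adjusted p = 0.00427). The third had 6.56, 6.10 and 6.12 in KLF15-null hearts, against 9.31, 9.30, 9.21 and 9.17 in WT hearts. Its difference was -2.99 (SE 0.13, adjusted p = 5.16e-07). The groups were separate on each of the 3 probe sets, in both directions, and the span between the extremes was 4.12 on the log2 scale.

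Of the scaffolds that bridge cap and ribosome, Eif4g3 rose and Eif4g2 did not pass the threshold on the probe set reported. Eif4g3 had 8.93, 8.79 and 8.79 in KLF15-null hearts, against 8.30, 8.35, 8.35 and 8.21 in WT hearts on its only probe set, a difference of 0.53 (SE 0.10, adjusted p = 0.00132) with separate groups. Eif4g2 (DAP5, a scaffold without the eIF4E site) gave 0.04 and -0.02 on its 2 brightest probe sets and rose by 0.98 on the third (adjusted p = 0.00113). Eif5a, the hypusine-containing factor that eases elongation and termination, had 11.60, 10.66 and 11.31 in KLF15-null hearts, against 11.55, 11.62, 11.99 and 11.62 in WT hearts. The groups overlapped, and -0.51 (SE 0.21) missed the threshold (adjusted p = 0.0686), while it was -0.90 after quantile normalization (adjusted p = 0.00101) and -0.83 after cyclic loess (adjusted p = 0.00152). Its second probe set, a cross-hybridizing one, differed by -1.72 (adjusted p = 7.39e-05). Eif6, which keeps large subunits from joining prematurely, had 9.63, 8.68 and 9.38 in KLF15-null hearts, against 8.61, 8.64, 8.71 and 8.59 in WT hearts. KLF15-null array 2 lay inside the WT range, and the difference of 0.59 (SE 0.20, adjusted p = 0.0305) failed the threshold when any array other than KLF15-null array 2 was left out (adjusted p between 0.0557 and 0.112). Without KLF15-null array 2 it was 0.87.

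Disagreement between probe sets of a gene was common among the initiation factors. Of the 22 genes with at least 2 tested probe sets, 9 had probe sets called in opposite directions, 40.9%, against 21.0% of the 2748 such genes on the array. Over all 82 tested probe sets of initiation factors 33 were called higher and 21 lower, where 26.8% of all tested probe sets of the array were higher and 23.8% lower. The 9 genes were Eif2b2, Eif2s2, Eif2s3x, Eif3a, Eif4a1, Eif4e2, Eif4e3, Eif4ebp2 and Eif5b. The median span between a gene's highest and lowest difference was 1.27 in these 22 genes, and 0.83 in all such genes. Having more probe sets gives a gene more chances to disagree, and the number of probe sets was not matched between the initiation factors and the array. Only Eif1a, Eif2ak1 and Eif3i had every tested probe set called in 1 direction, 13.6%, against 14.4% of all such genes.

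**Figure D3:**
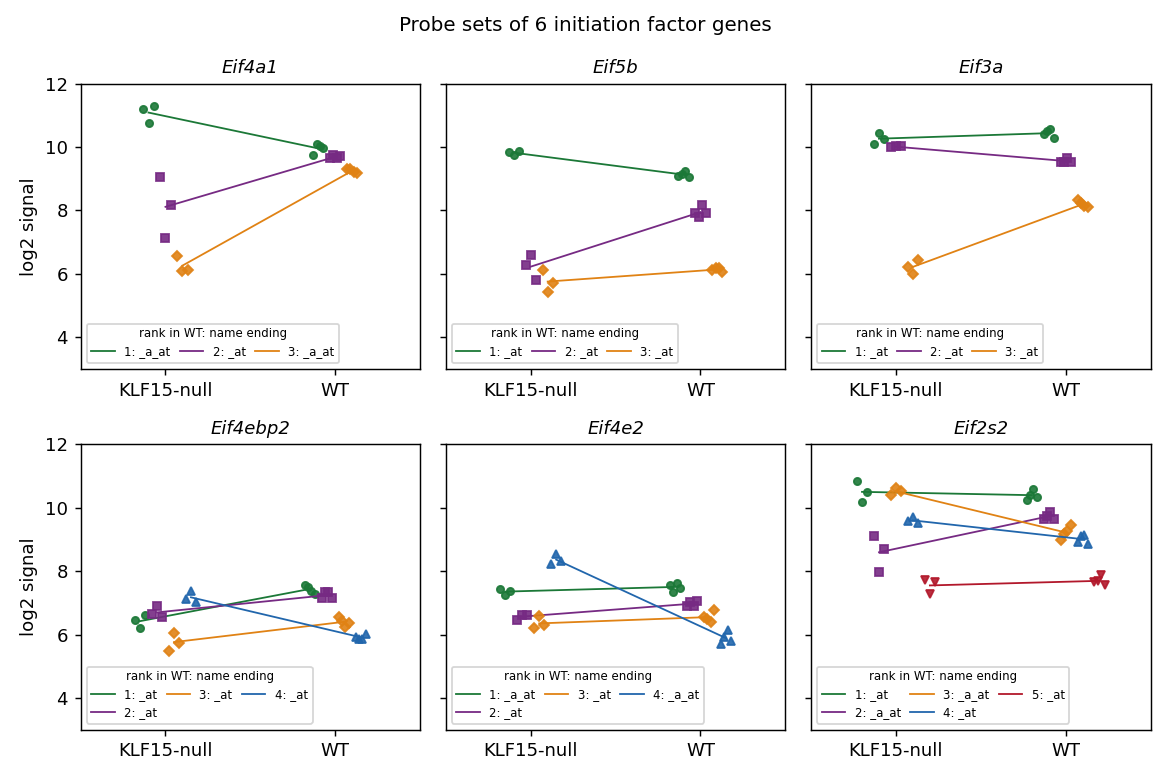
Log2 signal (y axis) on the KLF15-null and WT arrays (x axis) for each tested probe set of 6 initiation factor genes, points being arrays and lines joining group means, with probe sets ranked by WT mean. Within a gene lines slope in opposite directions, as for Eif4a1, where 1 probe set rose by 1.13 and the other 2 differed by -1.58 and -2.99.

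Direction went with the kind of probe set. On this array family a name ending in _x_at marks probes that can cross-hybridize with other sequences, _s_at probes shared by several transcripts, _a_at probes shared by transcripts of a gene, and a plain _at a unique match. Of the 11 tested _x_at probe sets of initiation factors 6 were higher and 2 lower, where 60.5% of all _x_at probe sets were higher and 7.91% lower. Of 20 _a_at probe sets 13 were higher and 3 lower, where 29.9% of all were higher and 28.5% lower. Of 5 _s_at probe sets 3 were higher and none lower, where 37.3% of all were higher and 17.9% lower. Of 46 plain _at probe sets 11 were higher and 16 lower, where 20.5% of all were higher and 25.0% lower. The median difference was 0.84 on the _x_at and 0.56 on the _a_at probe sets of initiation factors. With plain _at probe sets preferred, 12 initiation factors were higher and 10 lower, and Eif4a1 then stood at -1.58 and Eif3c at 0.02. That choice also set aside _a_at probe sets, such as the brightest ones of Eif4a1 and Eif1ax. The shares over all genes under it were not computed.

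**Figure D4:**
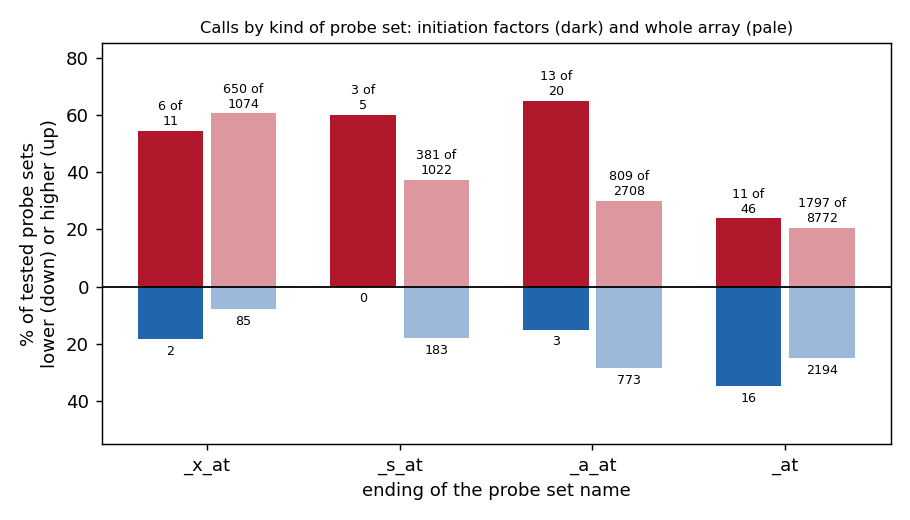
Share of tested probe sets called higher (up, red) or lower (down, blue) in KLF15-null hearts by the ending of the probe set name, for initiation factors (dark) and the whole array (pale), with counts on the bars. Of the initiation factor probe sets 13 of 20 _a_at ones were higher and 16 of 46 plain _at ones lower.

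Partners of initiation that do not carry the Eif name moved both ways. Of 15 tested 6 rose, 2 fell and 7 missed the threshold, set beside 25.3% that rose and 21.2% that fell over all genes, and the median difference was 0.05. Denr, which acts with Mcts1 in ribosome recycling and reinitiation, rose by 1.18 (SE 0.11, adjusted p = 2.65e-05), with 9.70, 9.83 and 9.91 in KLF15-null hearts, against 8.59, 8.63, 8.79 and 8.51 in WT hearts. Mknk2, a kinase that phosphorylates eIF4E, rose by 0.68 (adjusted p = 0.000415), and Paip2, an inhibitor of the poly(A)-binding protein, by 0.73 (adjusted p = 0.000998). Dhps, which carries out only the first step in making the hypusine of eIF5A, rose by 0.55 (adjusted p = 0.00410). Of 9 tested elongation and termination factors 3 were higher and 2 lower, near the shares of 25.3% and 21.2% over all genes, with a median of 0.01. Eef1b2, an exchange factor subunit of elongation, rose by 1.35 (SE 0.13, adjusted p = 2.87e-05), with 11.84, 12.10 and 12.07 in KLF15-null hearts, against 10.48, 10.63, 10.90 and 10.62 in WT hearts, and Eef1d, a further subunit, by 0.58 (adjusted p = 0.00268). Gspt1, the release factor eRF3a, fell by 0.59 (adjusted p = 0.0144), and Eef1e1 rose by 0.47 (adjusted p = 0.0122).

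Genes downstream of eIF2 phosphorylation, the integrated stress response, moved both ways. Of 13 tested 5 rose, 4 fell and 4 missed the threshold, beside 25.3% higher and 21.2% lower of all genes, and the median was 0.15. Cebpb, a leucine zipper factor also induced in inflammation, rose by 1.54 (adjusted p = 8.06e-05) and Ddit3 (CHOP) by 0.78 (adjusted p = 0.000424). Phgdh of serine synthesis fell by 0.72 (adjusted p = 0.00196), and Chac1, a glutathione-degrading enzyme, rose by 0.69 (adjusted p = 0.00579). These lists, like the genes of the Eif names, were read on the probe set brightest in WT.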

How the data were processed

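RNA of 7 fasted mouse hearts was measured on a 1-colour Affymetrix expression array of 22626 probe sets. The deposited values are log2 signals, 1 column per sample. The submitters' processing notes name GCOS, but which summarization and scaling lie behind the log2 values is not stated there, and the values were used as deposited. Genes were named from the platform annotation, and only probe sets with exactly 1 symbol were used. Probe sets whose 7-array mean fell under log2 5.74, the 40th percentile, were left out, and 13576 stayed in. Testing used limma 3.58.1 in R 4.3.3 (lmFit, then eBayes with trend = TRUE). Two-sided p-values were adjusted by Benjamini and Hochberg's method across the 13576 probe sets, and 0.05 was the threshold. The procedure was also run on simulated data with independent noise and no array or group-wide effect. That run therefore says nothing about such effects in these data. The number of arrays limits the precision.

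The genes and lists were chosen with earlier results of these data known, so that no count over them is independent support. All 40 symbols matched RefSeq (GRCm38.p6). Every initiation factor gene could be named. Values in every sample were given for the called genes with the largest difference in each complex and for genes whose probe sets disagreed, and up to 4 genes by smallest p were named in each related list. Promoters shown, and some further values per sample, were chosen after values were seen. Alternatives covered the filter, normalization, trend, array weights, threshold, choice of probe set, a replicate block and leaving out each array. Same-numbered samples did not deviate together (correlations of -0.11, 0.00 and 0.19), so they were not treated as pairs. Linear marker sums add 2 to the power of each log2 signal.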

Additional observations from a re-analysis of the deposited data

Results flagged for a closer look

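In 3 of the 38 genes tested 1 WT array stood apart from the other 3 by Dixon's criterion. Chance alone meets this criterion in about 1 in 20 groups, and 38 groups were examined. Eif3b had a log2 signal of 9.41 on WT array 4, the lowest of its group, where the nearest WT value was 9.53 and the gap made up 0.94 of the range. Eif3k had 10.07 on WT array 3, the highest of its group, where the nearest was 9.86 and the gap made up 0.85 of the range. Eif5a had 11.99 on WT array 3, also the highest, where the nearest was 11.62 and the gap made up 0.83 of the range. KLF15-null hearts, with 3 arrays, were not examined this way.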

How the results depend on the processing

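Of the 22 calls among initiation factors 10 held under all 19 alternatives: Eif1a, Eif1b, Eif2ak1, Eif2b1, Eif2b4, Eif3k, Eif4ebp2, Eif4g3, Eif4h and Eif5. Not every alternative could change them. Eif1b, Eif2b1, Eif2b4, Eif3k and Eif4g3 have 1 probe set each, so their differences could not change with the choice of probe set. Eif1a and Eif4h have no plain _at probe set to prefer, and Eif2ak1 and Eif4ebp2 have no other kind. The looser threshold of 0.1 can lose no call. Normalization moved the lower side: 14 genes were lower after quantile and 14 after cyclic loess normalization, against 7 on the deposited scale. Eif3e stood at -0.34 and Eif4g2 at -0.37 after quantile normalization, and at -0.24 and -0.28 after cyclic loess. Choice of probe set turned directions. On the probe set brightest over all arrays Eif2b2 was 0.84 and Eif2d 1.52, and with plain _at probe sets preferred Eif4a1 was -1.58. Averaging a gene's probe sets gave Eif2d 0.56, Eif4a1 -1.15, Eif4e2 0.43 and Eif5b -0.47. Leaving out 1 array gave 19 to 23 calls, 13 to 17 higher and 6 to 8 lower, and 15 to 22 calls in the related lists, against 22 there with all arrays. Eif3b ranged between -0.29 and 0.35 over these omissions, the higher value without KLF15-null array 2. With the replicate number as a block 20 genes were called, 13 higher and 7 lower, with 17 in the related lists. That fit lost Eif3d (0.35, adjusted p = 0.103) and Eif6 (0.58, adjusted p = 0.0598). Both were also lost without a block when only WT array 4 was left out. Among the KLF15-null arrays 1 of 3 correlated best with the WT array of its own number. Apart from the normalization and probe set choices themselves, the cause of these shifts was not tested. Without the filter 24 of 40 genes were called, 16 higher and 8 lower. Eif2ak4 was then called higher and Eif2ak2 lower, but genes as dim as these cannot be read here.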
